A study of Mus musculus with 6 samples.

Results

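The dendritic cell identity genes are 10 genes known for marking conventional dendritic cells or their maturation, namely Batf3, Zbtb46, Flt3, Clec9a, Cd209a, Xcr1, Ccr7, Fscn1, Dpp4 and Kmo. They were picked by symbol from a table of 43432 genes, and all 10 passed the filter on low values that left 21675 genes for testing. The genes were chosen with the results of the comparison of ages in view, so their differences between ages are given as a description, with no test.

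The libraries hold RNA of sorted macrophages from the mammary glands of female MMTV-PyMT mice of the FVB/N strain, 3 libraries at 8 weeks of age and 3 at 11 weeks. The transgene places polyomavirus middle T, an oncogene, under a promoter of mouse mammary tumour virus that is active chiefly in mammary epithelium, and tumours form in the glands. All 6 libraries carry the transgene, and the sort kept cells positive for CD45, MHC class II and CD14. The study asked how macrophage gene expression differs between early and late tumours. The labels do not say that each library came from its own animal, so the spread between libraries may be technical.

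Conventional dendritic cells present antigen to T cells and fall into the cDC1 type, which takes up dead cells and primes cytotoxic T cells, and the cDC2 type, which mainly primes helper T cells. Both develop under FLT3 ligand and are told from macrophages by the transcription factor ZBTB46. On maturation they gain the chemokine receptor CCR7 and the actin-bundling protein fascin and move to lymph nodes. MHC class II is carried by dendritic cells as well as macrophages, and CD14 is found on some monocyte-derived dendritic cells. No dendritic cell fraction is among the libraries, so the genes were read within macrophage RNA. In such bulk RNA, fewer cells of a type and less RNA per cell cannot be told apart.

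The libraries held 38784434 to 75004876 recovered reads, with 35.2% to 51.8% of the normalized counts in mitochondrial ribosomal RNA. Macrophage genes stood high in every library. The receptor gene Csf1r was at 54613 to 70989.5 normalized counts and the efferocytosis receptor gene Mertk at 5244.1 to 13200.9. All 15 macrophage markers were tested, 9 with a positive and 6 with a negative difference, and none passed (limma, 4 with an unadjusted p under 0.05). At 11 weeks 1 of them, Csf1r, lay wholly below its 8-week values and 4 wholly above. Over all genes tested the shares were 5.12% and 6.81%.

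The 10 genes spanned nearly 3 orders of magnitude in level. Per kilobase of exon, Cd209a stood highest with 2600 ± 587 normalized counts per kb (SD over the 6 libraries) and Clec9a lowest with 2.91 ± 3.34. Kmo was at 212 ± 103 and Ccr7 at 173 ± 89.1 on the same scale. Zbtb46 (51.4 ± 18.5), Batf3 (50.2 ± 42.1), Dpp4 (29.9 ± 13.7), Fscn1 (28.5 ± 33.1) and Xcr1 (23.1 ± 36.9) followed, with Flt3 at 6.82 ± 7.83. Cd209a lay above Kmo in 6 of 6 libraries with no overlap of their ranges. Every other neighbour in this order overlapped the next in range, and Kmo, for example, lay above Ccr7 in 4 of 6 libraries. For comparison, Csf1r was at 10886 and Mertk at 2169 normalized counts per kb, so only Cd209a reached the level of a macrophage receptor gene, and the genes most specific to cDC1, Clec9a and Xcr1, were among the 3 lowest.

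**Figure D1:**
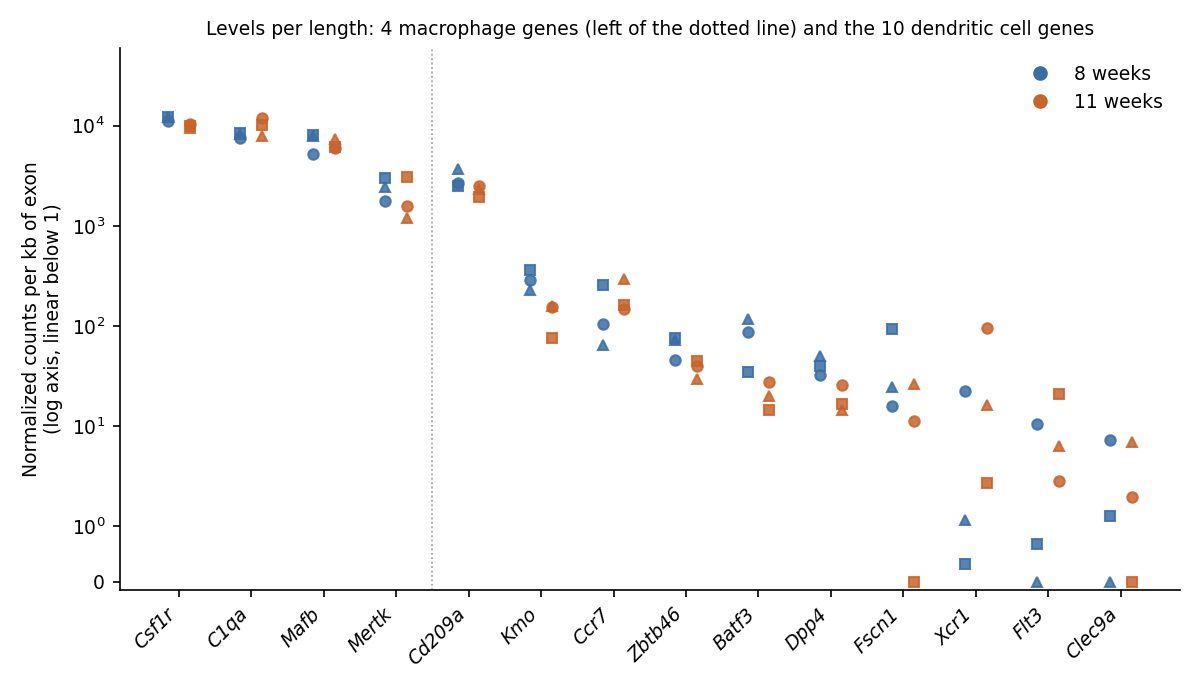
Normalized counts per kilobase of exon (log axis, linear below 1) of 4 macrophage genes and the 10 dendritic cell genes, ordered by mean within each set, with 1 point per library (circle, square and triangle for replicates 1, 2 and 3, blue for 8 weeks and orange for 11 weeks). Cd209a lies between 1926 and 3675, while Fscn1, Flt3 and Clec9a reach 0 in at least 1 library.

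At 11 weeks 5 of the 10 genes lay wholly below their 8-week values: Kmo, Dpp4, Batf3, Zbtb46 and Cd209a. Across the 21675 genes tested, 5.12% lay wholly lower at 11 weeks and 6.81% wholly higher. No dendritic cell gene lay wholly higher, and the other 5 (Ccr7, Fscn1, Xcr1, Flt3 and Clec9a) overlapped between the ages. By the sign of the difference of mean log2(normalized count + 1), 6 were lower and 4 higher, with a median of -0.57, against a median of 0.052 over all genes tested, of which 47.2% were negative. None of the 10 was among the 11 genes (0.0507%) that passed an adjusted p of 0.05 by limma, 3 of them lower at 11 weeks (0.0138%) and 8 higher (0.0369%), and 1, Kmo, had an unadjusted p under 0.05, as had 8.03% of all genes tested. By edgeR, which called 0.0646% of genes, by DESeq2, which called 2.73%, and at an adjusted p under 0.05 in the authors' deposited table, which holds for 1.91%, the count was also 0. DESeq2 and the deposited table each gave no adjusted p for 1 of the 10. Since the genes were chosen with this comparison known, nothing is read from these counts.

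**Figure D2:**
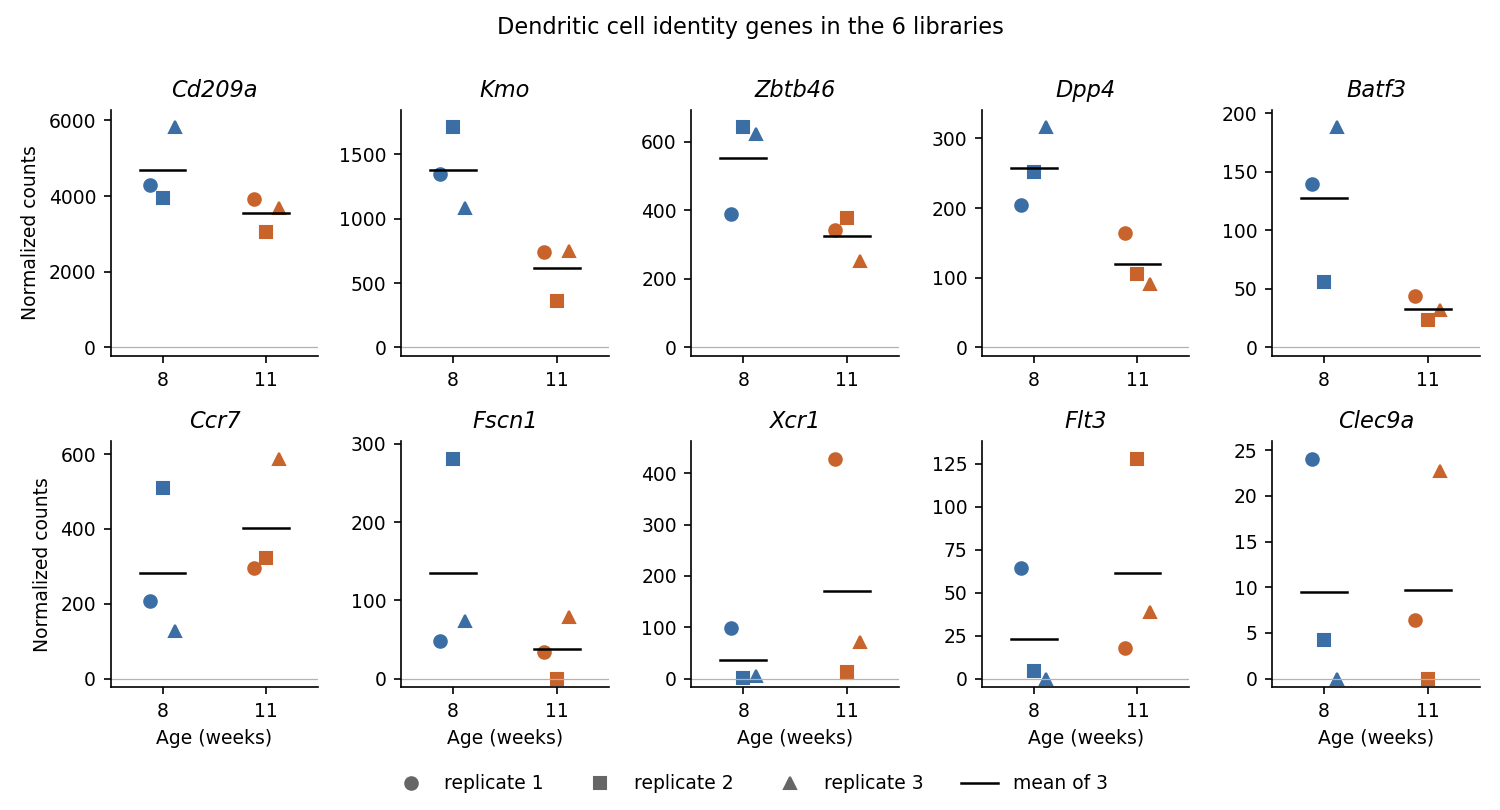
Normalized counts (linear axes from 0) of the 10 dendritic cell genes at 8 and 11 weeks, with 1 point per library and a bar at the mean of 3. In the upper row the 11-week points lie below all 8-week points, and in the lower row a single library, such as 11-week replicate 1 for Xcr1 at 428.5, sets much of the mean.

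RefSeq promoter windows (GRCm38.p6) were found for 9 of the 10 genes, all but Ccr7. The 250 bases before the start lay wholly outside the gene's deposited span for 5 of them. Of these, Dpp4 and Cd209a are the genes that lay lower at 11 weeks without overlap, and their windows are shown for that reason. The Dpp4 window is chr2:62412232-62412481 and the Cd209a window chr8:3748985-3749234, both on the minus strand and written 5′ to 3′ along the gene. Capitals mark matches, on either strand, to TGANTCA (AP-1), the IRF pair (GAAA, any 2 bases, GAAA, as bound by interferon regulatory factors), GAGGAA (a PU.1 core) or TATAAA (the TATA box letters).
Dpp4: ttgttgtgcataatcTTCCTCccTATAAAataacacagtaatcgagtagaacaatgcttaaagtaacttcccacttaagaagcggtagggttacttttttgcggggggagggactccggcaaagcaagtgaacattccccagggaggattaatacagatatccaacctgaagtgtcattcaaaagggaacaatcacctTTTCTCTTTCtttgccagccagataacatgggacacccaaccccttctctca
Cd209a: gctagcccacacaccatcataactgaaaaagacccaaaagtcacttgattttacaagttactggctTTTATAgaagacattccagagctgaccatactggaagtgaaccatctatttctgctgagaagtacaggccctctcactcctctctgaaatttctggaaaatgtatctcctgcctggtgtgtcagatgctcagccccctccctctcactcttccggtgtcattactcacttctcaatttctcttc
The Dpp4 window holds TTCCTC, the reverse complement of GAGGAA, 235 to 230 bases before the start, TATAAA at 227 to 222, and the IRF pair on the reverse strand at 52 to 43. The Cd209a window holds only TTTATA, the reverse complement of TATAAA, at 184 to 179. Over 32817 RefSeq windows of 250 bases, 6.75% hold the AP-1 letters, 2.97% the IRF pair, 23.3% the PU.1 core and 12.4% the TATA letters. These matches describe letters in the window and no measurement of binding was made.

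Of the transcription factors, BATF3 is required for cDC1 development, and ZBTB46 marks the conventional dendritic cell lineage. Batf3 (ENSMUSG00000026630, GRCm38 chromosome 1, 191097847 to 191108945, plus strand) had 139.1, 55.4 and 187.9 normalized counts in the 8-week libraries and 44.1, 23.2 and 31.7 in the 11-week libraries, in the order of replicates 1, 2 and 3. The lowest 8-week library, replicate 2, lay just above the highest 11-week library. These values rest on 23 to 220 reads. The means were 127 ± 67.0 and 33.0 ± 10.5 normalized counts (SD, n = 3), a log2 difference of -1.80 ± 0.90 (SE). Among the 5 genes without overlap this was the largest difference, and the authors' deposited log2 fold change was -1.10. Replicates 1 to 3 and then 8 before 11 weeks is the order of all paired values that follow.

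Zbtb46 (ENSMUSG00000027583, chromosome 2, 181387762 to 181459426, minus strand) had 389.6, 641.4 and 620.9 normalized counts in the 8-week libraries and 341.1, 377 and 252.9 in the 11-week libraries. The ages are separated only by the gap between 8-week replicate 1 and 11-week replicate 2. The means were 551 ± 139.8 and 324 ± 63.9 (SD, n = 3), a log2 difference of -0.75 ± 0.43 (SE).

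Other dendritic cell transcription factors lay on both sides of 0. Of 22 tested, 9 were positive and 13 negative with a median of -0.052, and none passed (limma, 1 with an unadjusted p under 0.05). That gene was Cbfa2t3, a corepressor active in dendritic cell progenitors, with 814.1, 475.2 and 1659.5 normalized counts in the 8-week libraries and 177.5, 256.1 and 412.4 in the 11-week libraries. Its log2 difference was -1.70 ± 0.50 (SE; limma adjusted p = 0.31), and it passed by DESeq2 (adjusted p = 0.0245). Irf8, the partner factor needed for cDC1 development, was named after its values were seen. It stood at 2731 ± 228 and 2756 ± 871 normalized counts (SD of 3 libraries; limma, adjusted p = 0.977). The NF-kB subunit gene Relb was at 467 ± 236 and 607 ± 117 (SD of 3 libraries; limma, adjusted p = 0.812).

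Flt3 encodes the receptor tyrosine kinase through which FLT3 ligand sustains dendritic cell progenitors and mature conventional dendritic cells. Flt3 (ENSMUSG00000042817, chromosome 5, 147330741 to 147400489, minus strand) had 64.2, 4.2 and 0 normalized counts in the 8-week libraries and 17.5, 128 and 39 in the 11-week libraries. The ages overlapped, since 8-week replicate 1 exceeded 2 of the 11-week libraries. The reads were 72, 3 and 0 at 8 weeks and 19, 127 and 43 at 11 weeks. The 0 in 8-week replicate 3 allows up to 2.56 normalized counts (3 reads, counting error only). The log2 difference of 2.71 ± 1.55 (SE) was 1.31 without 8-week replicate 3 and 4.32 without 8-week replicate 1. The count models gave smaller values, 1.41 by edgeR and 1.43 by DESeq2. The authors' deposited log2 fold change was 0.285, but it may be another measure, as described with the processing.

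Around this receptor, none of 9 tested genes of the FLT3 and CSF2 receptor axis passed (limma, 3 with an unadjusted p under 0.05), with 5 positive, 4 negative and a median of 0.10. Kitl, which encodes the KIT ligand, was at 721 ± 256 and 1368 ± 52.2 normalized counts without overlap (SD of 3 libraries; limma, adjusted p = 0.423). Kit was at 101 ± 82.5 and 412 ± 277 (SD of 3 libraries, limma adjusted p = 0.542). Csf1r, the macrophage growth factor receptor gene, was at 68658 ± 3684 and 57054 ± 2478 without overlap (SD of 3 libraries, limma adjusted p = 0.609). Csf2, which encodes GM-CSF, had no read in any 8-week library and was at 11, 0 and 18.1 at 11 weeks.

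Cd209a and Clec9a, the antigen uptake receptor genes, were the highest and the lowest of the 10 per kilobase. CD209a is a C-type lectin of the DC-SIGN family found on monocyte-derived and cDC2-type cells, and CLEC9A binds actin filaments exposed on dead cells. Cd209a (ENSMUSG00000031494, chromosome 8, 3743395 to 3748984, minus strand) had 4279, 3958 and 5817.3 normalized counts in the 8-week libraries and 3915.2, 3048.4 and 3680.7 in the 11-week libraries. Only a narrow gap, between 8-week replicate 2 and 11-week replicate 1, separated the ages. The means were 4685 ± 994 and 3548 ± 448 (SD, n = 3), and the log2 difference of -0.39 ± 0.23 (SE) was the smallest of the 5 genes without overlap.

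The other CD209 family genes mostly had the opposite sign. Of 6 tested, 5 were positive and 1 negative, with a median log2 difference of 0.33, and none passed (limma, 2 with an unadjusted p under 0.05). With scaling to library totals 4 of 6 were positive. Cd209d had 6610.6, 5296.3 and 7421.2 normalized counts in the 8-week libraries and 10954.7, 9663.5 and 14498 in the 11-week libraries. Its ages did not overlap and its log2 difference was 0.85 ± 0.21 (SE; limma adjusted p = 0.198). It passed by DESeq2 (adjusted p = 0.0208). By comparison, Cd209e was at 257 ± 153 and 730 ± 443 (SD of 3 libraries; limma, adjusted p = 0.601). Reads of such closely related copies cannot be assigned with certainty.

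Clec9a (ENSMUSG00000046080, chromosome 6, 129408862 to 129424764, plus strand) had 24.1, 4.2 and 0 normalized counts in the 8-week libraries and 6.4, 0 and 22.7 in the 11-week libraries. No library held more than 27 of its reads and 2 held none, with the 0 values allowing up to 2.56 and 3.02 normalized counts (3 reads). The log2 difference was 0.14 ± 1.65 (SE), and its sign changed in 5 of 15 alternatives, so no difference was detectable at these read numbers. Clec9a overlaps Clec1b on the same strand in the deposited table, and Clec1b was at 0 to 14.1 normalized counts. Of 6 other genes of this lectin cluster 4 were positive and 2 negative, with a median of 0.56 and none passing (limma, 1 with an unadjusted p under 0.05). Clec12a, which encodes an inhibitory lectin, was at 2548 ± 317 and 1705 ± 735 normalized counts and Clec7a, the beta-glucan receptor gene, at 1834 ± 745 and 1102 ± 289 (SD of 3 libraries; limma, adjusted p = 0.609 and 0.637).

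Of the chemokine receptors, XCR1 is confined to cDC1 among dendritic cells and answers XCL1 from activated lymphocytes, while CCR7 guides mature dendritic cells, and also naive T cells and B cells, to lymph nodes. Xcr1 (ENSMUSG00000060509, chromosome 9, 123852315 to 123862029, minus strand) had 99, 1.4 and 5.1 normalized counts in the 8-week libraries and 428.5, 12.1 and 71.6 in the 11-week libraries. The ages overlapped, and 11-week replicate 1 alone exceeded 8-week replicate 1. In reads the values were 111, 1 and 6 against 466, 12 and 79. The log2 difference of 2.71 ± 1.53 (SE) was 1.44 without 11-week replicate 1 and 4.28 without 8-week replicate 1. Without both 8-week replicate 2 and 11-week replicate 1, an alternative chosen after seeing the data, it was 0.32. By edgeR and DESeq2 on the reads of all libraries it was 2.24 and 2.28, and the authors' deposited log2 fold change was 0.526. The library highest for Xcr1, 11-week replicate 1, held 466 reads of it and 7 of Clec9a, the other cDC1 receptor.

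Other cDC1 genes lay on both sides of 0. Of 17 tested, 8 were positive and 9 negative, with a median of -0.037, and none passed (limma, 0 with an unadjusted p under 0.05, and 0 by edgeR and DESeq2). The adhesion molecule gene Cadm1 was at 5476 ± 1380 and 3936 ± 294 normalized counts (SD of 3 libraries; limma, adjusted p = 0.658). Wdfy4, which cDC1 need for cross-presentation, was at 2878 ± 328 and 2298 ± 730 (SD of 3 libraries; limma, adjusted p = 0.789). Both genes stood far above Xcr1 and Clec9a in these macrophage libraries, so the list is not a measure of cDC1 alone. The ligand gene Xcl1 was at 1.8, 27.7 and 73.5 and at 37.7, 9.1 and 0 normalized counts.

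Ccr7 (ENSMUSG00000037944, chromosome 11, 99144196 to 99155077, minus strand) had 208.6, 508.4 and 126.4 normalized counts in the 8-week libraries and 294.2, 321.6 and 588.2 in the 11-week libraries. The ages overlapped, and 8-week replicate 2 and 11-week replicate 3 stood high. The means were 281 ± 201 and 401 ± 162 (SD, n = 3), a log2 difference of 0.68 ± 0.57 (SE), which was 0.23 without 8-week replicate 3 and 1.23 without 8-week replicate 2. The B cell gene Ms4a1 had 45.5, 0 and 5.1 normalized counts against 146.2, 2 and 152.3, high in 11-week replicates 1 and 3. Another B cell gene, Cd79b, had 241.6, 95.6 and 20.5 against 14.7, 3 and 105.1. These genes did not share 1 order over the libraries, and neither was highest in 8-week replicate 2. Of 13 T cell markers 7 were positive and 6 negative, with a median of 1.22, and none passed (limma, 3 with an unadjusted p under 0.05). Cd3e, part of the T cell receptor complex, was at 16, 117.8 and 5.1 and at 170.1, 345.8 and 177.6 normalized counts. Cd3e and Trac (1.4 to 14.5 and 37.3 to 75.2) lay wholly higher at 11 weeks, and no T cell marker lay wholly lower. Over all genes tested the shares were 6.81% and 5.12%. The list summed to 5703 to 6788 at 8 weeks and 5330 to 6187 at 11 weeks. Most of it came from Cd4 (1645 to 3071) and Il7r (2517 to 3271), both chosen after their values were seen. The sum thus follows these 2 genes and is not a measure of T cells. The part of lymphocytes in the Ccr7 values was not tested. The CCR7 ligand genes Ccl19, Ccl21a, Ccl21b and Ccl21c were listed at 0 in every library.

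Fascin, the product of Fscn1, bundles actin in the projections of mature dendritic cells. Fscn1 (ENSMUSG00000029581, chromosome 5, 142960343 to 142973185, plus strand) had 48.1, 281.2 and 73.5 normalized counts in the 8-week libraries and 34, 0 and 78.9 in the 11-week libraries. The ages overlapped, with 8-week replicate 2 far above the rest and no read in 11-week replicate 2, which allows up to 3.02 normalized counts. The log2 difference of -2.84 ± 1.44 (SE) depends on that 0: without 11-week replicate 2 it was -0.93, and without 11-week replicate 3 it was -4.09. By edgeR it was -1.85, by DESeq2 -1.83, and the authors' deposited log2 fold change was -0.489. Fscn1 and Ccr7 were both highest among the 8-week libraries in replicate 2, whereas in 11-week replicate 2 Ccr7 was at 321.6 and Fscn1 at 0.

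The mature migratory dendritic cell list lay on both sides of 0, with 15 of 28 others positive, 13 negative, a median of 0.053 and none passing (limma, 3 with an unadjusted p under 0.05). Ccl22 and Ccl17, whose products attract CCR4-bearing T cells, were at 476 ± 468 and 1540 ± 378 and at 201 ± 185 and 465 ± 195 normalized counts (SD of 3 libraries; limma, adjusted p = 0.213 and 0.579). Ccl22 did not overlap between the ages and was at 254.9 in 8-week replicate 2, where Fscn1 was highest. Aldh1a2, which makes retinoic acid, was at 2059 ± 147 and 1293 ± 233 without overlap (SD of 3 libraries; limma, adjusted p = 0.517). The 16 other chemokine receptors went both ways, 8 up and 8 down in sign, with none passing (limma, 3 with an unadjusted p under 0.05). Among these Ccr2, the monocyte receptor gene, was at 17679 ± 6209 and 10333 ± 1594 and Cxcr2, the neutrophil receptor gene, at 58.8 ± 48.1 and 558 ± 300.0 normalized counts (SD of 3 libraries; limma, adjusted p = 0.415 and 0.213).

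Both enzyme genes were lower at 11 weeks without overlap. DPP4 (CD26) is a surface peptidase that trims chemokines and is carried by cDC1 and by many T cells. Dpp4 (ENSMUSG00000035000, chromosome 2, 62330073 to 62412231, minus strand) had 204.2, 252.1 and 316 normalized counts in the 8-week libraries and 163.7, 104.8 and 91.5 in the 11-week libraries. Every 11-week library lay below every 8-week library. The means were 257 ± 56.1 and 120 ± 38.4 (SD, n = 3), a log2 difference of -1.12 ± 0.59 (SE) that ranged from -1.37 to -0.95 over 16 alternatives. Gm13561, an antisense gene that overlaps Dpp4, was at 0 to 5.5 normalized counts. None of the 6 other tested genes of the peptidase family passed (limma, 0 with an unadjusted p under 0.05). The cytosolic relatives Dpp8 and Dpp9 had log2 differences of -0.33 and 0.31 (limma adjusted p = 0.772 and 0.835).

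KMO turns kynurenine into 3-hydroxykynurenine in tryptophan breakdown and belongs to the genes shared by conventional dendritic cells. Kmo (ENSMUSG00000039783, chromosome 1, 175620381 to 175662116, plus strand) had 1350.8, 1710.9 and 1086.4 normalized counts in the 8-week libraries and 737.4, 360.9 and 748.6 in the 11-week libraries. Its lowest 8-week value stood clear of its highest 11-week value. The means were 1383 ± 313 and 616 ± 221 (SD, n = 3), a log2 difference of -1.22 ± 0.37 (SE). The values rest on 358 to 1515 reads, and the difference ranged from -1.40 to -0.87 over 16 alternatives. Kmo overlaps Fh1, the fumarate hydratase gene, on the opposite strand, and Fh1 was at 1025.2 to 1629.6 normalized counts. The counting is not stated to use strand, so reads in the shared stretch cannot be told apart.

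Other kynurenine pathway genes lay on both sides of 0, with 4 of 10 tested positive, 6 negative, a median of -0.22 and none passing (limma, 0 with an unadjusted p under 0.05, and 0 by edgeR and DESeq2). Kynu, the next enzyme, had 386.1, 400.4 and 250.3 normalized counts in the 8-week libraries and 152.6, 390.1 and 97 in the 11-week libraries (limma adjusted p = 0.748). Ido1, which starts the pathway in many dendritic cells, and Aadat were listed at 0 in all 6 libraries.

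**Figure D3:**
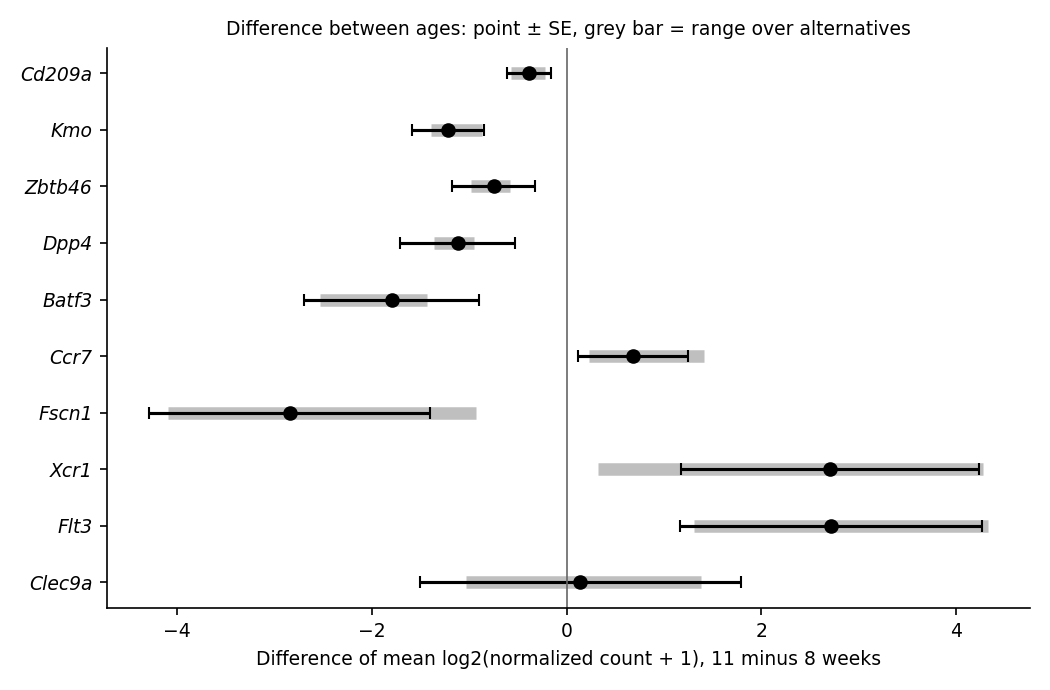
Difference of mean log2(normalized count + 1), 11 minus 8 weeks, for each dendritic cell gene, as a point with its SE, with a grey bar for the lowest to the highest value over the alternative settings. Cd209a, Kmo, Zbtb46, Dpp4, Batf3 and Fscn1 stay below 0 and Ccr7, Xcr1 and Flt3 above 0 over these settings, while the bar of Clec9a, from -1.03 to 1.38, crosses 0.

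Overlap between the ages depends on the spread within them, so the spread describes the same split. The within-age SD of log2 values was 0.25 for Cd209a, 0.35 for Zbtb46, 0.38 for Dpp4, 0.48 for Kmo and 0.72 for Batf3. It was 0.81 for Ccr7 and 2.32 to 2.66 for Clec9a, Flt3, Fscn1 and Xcr1. Low counts spread more, so each gene was set beside genes within 1.2-fold of its mean. Of 862 such genes 94.8% spread less than Xcr1, and of 837 such genes 91.8% spread less than Fscn1. For Kmo 68.4% of 1039 such genes spread less and for Cd209a 44.8% of 542. The shares were 19.0% for Zbtb46, 17.6% for Batf3 and 9.62% for Dpp4, so of the 5 genes without overlap Kmo spread more than most genes of its level.

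The profiles of the 10 genes over the 6 libraries were compared by the root mean square difference of log2 values centred on each gene's mean, where 0 means the same shape and size of change. Among the 10, Dpp4 and Zbtb46 were most alike with 0.32, followed by Zbtb46 and Cd209a with 0.39. Genes that vary little come out alike by this measure. The root mean square from the gene's own mean was 0.64 for Dpp4, 0.47 for Zbtb46 and 0.28 for Cd209a. A flat profile would thus be nearer to Cd209a than Zbtb46 was. Of 11298 candidate genes averaging 50 or more normalized counts at either age, Wdtc1 was nearest to Zbtb46 (0.055), mt-Ti nearest to Cd209a (0.056), Usp30 nearest to Dpp4 (0.12), Telo2 to Kmo (0.21) and Chn2 to Batf3 (0.33). For the low genes the nearest profiles were farther off, but these genes also varied more. Their root mean square from their own mean was 2.36 for Flt3, 2.52 for Fscn1 and 2.56 for Xcr1. The nearest to Flt3 was Rwdd2a (0.48), to Fscn1 Ttc21a (0.50) and to Xcr1 G6b (0.67). Rpl21 was nearest to Ccr7 (0.17). These are descriptions over 6 libraries that share scaling and amplification.

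Other genes shared by conventional dendritic cells lay on both sides of 0. Of 24 tested, 14 were positive and 10 negative, with a median of 0.068, and none passed (limma, 3 with an unadjusted p under 0.05). H2-Eb2, a class II beta chain gene, had 140.9, 79 and 124.7 normalized counts in the 8-week libraries and 1.8, 38.3 and 26.3 in the 11-week libraries, with no overlap (limma adjusted p = 0.51). Kit ran the other way, as given above, but its ages overlapped and it also stands in the mast cell and basophil list. The part of other cells in the Kit values was not tested. Among 15 other cDC2 genes, 6 were positive and 9 negative with a median of -0.37, and none passed (limma, 3 with an unadjusted p under 0.05). Of these, Itgam was at 17029.4 to 50154.3 normalized counts in these macrophage libraries, and Epcam also stands among the epithelial markers. The list is thus not a measure of cDC2 alone. Notch2, whose signal a cDC2 subset needs, was at 11077 ± 2402 and 7765 ± 1137 without overlap (SD of 3 libraries; limma, adjusted p = 0.539). Plasmacytoid dendritic cell genes had 4 of 10 positive and a median of -0.33 with none passing (limma, 1 with an unadjusted p under 0.05). Siglech, which marks these cells and some macrophages, was at 363 ± 100.0 and 160 ± 80.3 normalized counts without overlap (SD of 3 libraries; limma, adjusted p = 0.603).

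**Figure D4:**
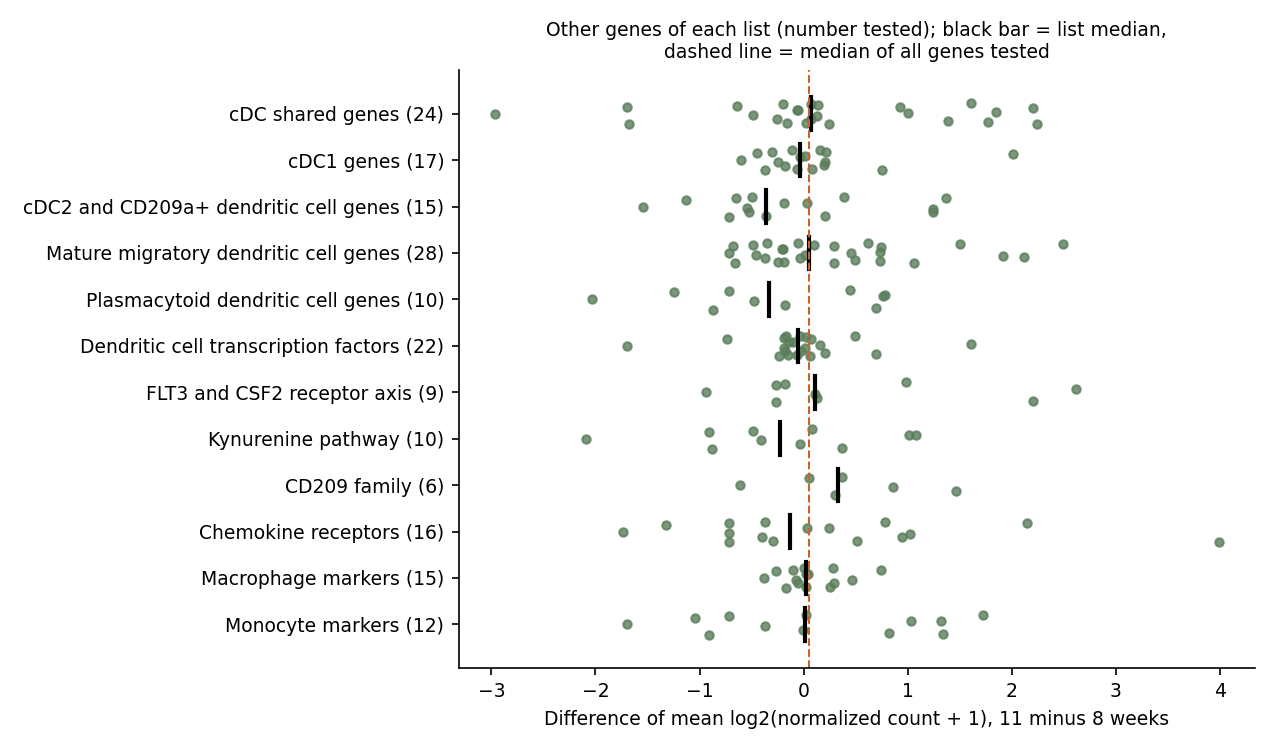
Difference of mean log2(normalized count + 1), 11 minus 8 weeks, for the other tested genes of 12 lists (1 point per gene, the 10 chosen genes left out), without the DPP4, fascin and Clec9a cluster lists, the ligands and the markers of lymphocytes and other cells, with a black bar at each list's median and a dashed line at 0.052, the median of all genes tested. The medians drawn run from -0.37 for cDC2 genes to 0.33 for the CD209 family, and most lists spread to both sides of 0.

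Markers of other cells were set beside these values. Of the 241 tested list genes 2 passed by limma, the milk protein gene Csn3, which rose, and Fn1, which encodes fibronectin and fell (limma adjusted p = 0.000888 and 0.0354). By edgeR 1 passed, Csn3. DESeq2 called 13, of which Cbfa2t3, Cd209d and Cxcr2 belong to the dendritic cell, CD209 and chemokine receptor lists. Epithelial markers had 10 of 11 positive, and their summed level was 7794 to 10693 normalized counts at 8 weeks and 23804 to 42203 at 11 weeks. Monocyte markers summed to 100393 to 146071 at 8 weeks and 79626 to 82677 at 11 weeks, and neutrophil markers to 1434 to 3473 and 4321 to 5696. NK cell markers summed to 150 to 273 and 148 to 786, and Klrk1 alone had 651.9 in 11-week replicate 1, the highest library. The NK ranges overlapped. Fibroblast markers summed to 782 to 1319 and 1529 to 3189, endothelial markers to 420 to 543 and 682 to 1244, and mast cell and basophil markers, whose ranges overlapped, to 161 to 353 and 231 to 835. The other fascin genes, Fscn2 and Fscn3, together reached 15.2 to 48.7 and 1 to 150.5 normalized counts. The part of these cells in the lower Kmo, Dpp4, Batf3, Zbtb46 and Cd209a values was not tested.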

How the data were processed

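RNA of sorted mammary gland macrophages was sequenced in 6 libraries, 3 at 8 weeks and 3 at 11 weeks. Per the labels' protocols, the RNA was amplified from low input before libraries were made. STAR 2.4, DESeq2 1.6 and GRCm38 stand in the submitters' processing notes, and how reads were counted is not stated there. The authors deposited a signal value for every gene in every library, a count divided by that library's size factor and rounded at the first decimal. Beside it the authors' log2 fold change, fold ratio, p-value and adjusted p-value are deposited. The deposited fold ratio is not the ratio of mean normalized counts, for Flt3 1.218 against 2.70. The deposited log2 fold changes thus need not be the same measure as the differences fitted here. Read numbers were recovered as multiples of the value of 1 read. At least 99.95% of values in each library lay within 0.05 normalized counts of such a multiple. No libraries held identical values.

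limma (trend, robust) was fitted to log2(normalized count + 1) for all genes averaging 1 or more at either age, with Benjamini-Hochberg adjustment over them. Adding 1 shrinks log differences of low values, but a library at or near 0 can still make a mean of logs exceed the difference of a count model, so both are given for Flt3, Fscn1 and Xcr1. Alternatives changed the scaling, pseudocount and filter, added the replicate block, used edgeR's quasi-likelihood test or DESeq2 on recovered reads, or left out libraries. Exon lengths were exon unions of a GRCm38 annotation. The 10 genes and the 24 lists (303 entries, 300 found by symbol and 3 by gene ID) were chosen with earlier results of these data known. Named genes are those 10, at most 4 per list with the smallest p, list genes that passed, and the nearest profiles. Mertk, Irf8, Klrk1, Cd4, Il7r, Ido1, Aadat and the CCR7 ligand genes fall outside this rule. They were named after their values were seen, as were genes that overlap the 10. The summed level of the B cell list is not reported here. The fit was tested on simulated reads with 200 changed genes in each of 3 runs. It passed 10% of 2-fold and 41% of 4-fold changes, and 7.83% of the genes it passed were unchanged. A gene that did not pass may thus still differ between the ages. Versions used were limma 3.58.1, DESeq2 1.42.0 and edgeR 4.0.16 under R 4.3.3, with numpy 2.4.6, matplotlib 3.10.9 and pandas 2.3.3 under Python 3.11.15.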

Additional observations from a re-analysis of the deposited data

How the results depend on the processing

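Of the 10 dendritic cell genes, 6 had a negative difference between the ages, and this count stayed within 1.5-fold in every alternative run. The number of all genes passing an adjusted p of 0.05 was 11 by limma, and it was 4 with scaling to library totals, 5 with a pseudocount of 8 and 422 by DESeq2. It ranged from 3 to 16 as single libraries were left out, and was 3 without 8-week replicate 1 and 4 without 11-week replicate 1. Without both 8-week replicate 2 and 11-week replicate 1, chosen after seeing the data because Fscn1 and Xcr1 stood highest there, it was 1. Of the list genes outside the 10, 2 passed by limma, 1 with scaling to library totals, with a pseudocount of 8 and by edgeR, and 13 by DESeq2. Leaving out single libraries gave 1 to 2, and leaving out the 2 libraries named gave 0. With the replicate block, the replicate number as a term, 45 genes passed over all and 5 among the list genes, and none of the 10 did. The replicate numbers were not taken as pairs, because the mice of the 2 ages differ. Deviations of same-numbered libraries from their age means correlated at -0.0226, -0.00851 and -0.0141 across 10727 genes. edgeR called 14 genes on the recovered reads. Clec9a, Flt3, Fscn1 and Xcr1 each had fewer than 20 reads in at least 1 library. Fscn1 and Xcr1 also reached 203 and 466 reads in other libraries, and the source of this spread was not tested.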
